A study of Homo sapiens with 12 samples.

Results

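Axon guidance genes encode the cues that steer growing axons and migrating cells and the receptors that read them. The group described here was taken by gene symbol as the protein-coding semaphorins, neuropilins, plexins, ephrins, Eph receptors, Slits, Robos, netrins (NTN1 and NTN4), netrin receptors (DCC and UNC5A to UNC5D), repulsive guidance molecules (RGMA and RGMB) and teneurins. The rule found 73 genes in 14 classes among the 58302 genes of the count tables. Of these, 68 averaged 20 or more counts across the 12 samples and were tested, as were 13454 genes in all.

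The 12 RNA-seq samples came from the H1 human embryonic stem cell line, and each of the 6 groups had 2 samples. WT or dKO cells were turned into neural progenitor cells (NPCs) with the SMAD pathway inhibitors SB431542 and dorsomorphin and kept in medium with bFGF and EGF, and were sequenced as NPCs (passage 2 per the study's methods, with no passage in the labels), as NPCs at passage 4 (NPC-P4), or after 28 days of undirected differentiation with GDNF, BDNF and cAMP in place of bFGF and EGF (D28). In dKO cells the catalytic part of both H3K27 demethylases, UTX (KDM6A) and JMJD3 (KDM6B), was deleted with Cas9 and a puromycin cassette. Targeted cells were selected as colonies, and how many colonies stand behind the dKO samples was not given in the sources used here, so genotype and clone cannot be told apart.

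Semaphorins signal through plexins, with neuropilins as co-receptors for most secreted class 3 members. Membrane-bound ephrins bind Eph receptor kinases on neighbouring cells, Slits repel axons through Robo receptors, and netrin-1 attracts axons through DCC or repels them when UNC5 receptors take part. RGMs signal through neogenin, and teneurins are large transmembrane proteins that join cells across synapses. In the developing forebrain these systems guide axon tracts and also act on progenitors, on neuronal migration and on vessels.

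Samples held 756942 to 10601172 counts, and a count of 3 was worth 0.302 to 3.92 CPM (counts scaled by the TMM library size). The NPC libraries were the shallowest, at 756942 to 1438807 counts. In the first WT NPC sample, 3 counts were 3.92 CPM. EFNA3, EPHA5, EPHA10, SLIT3 and UNC5A stood at that level there, so the size of their changes against WT NPCs is uncertain. Within groups, the spread between the 2 samples over all genes was 1.57 to 2.72 times that of counting alone (chi-square per degree of freedom), except in dKO-D28 at 11.3. Of the 68 members, 13 differed more than 2-fold between the 2 dKO-D28 samples, against 0 in WT NPC-P4, 1 in dKO NPC-P4, 1 in WT-D28, 6 in dKO NPCs and 7 in WT NPCs. The labels do not say whether paired samples were separate cultures, so the p-values measure only the spread between these samples. They name no batch either, so a batch that followed a group cannot be told apart from it.

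KDM6A and KDM6B transcripts were still counted in dKO cells, where the deletions were aimed at the catalytic sites. KDM6A stood at 61.4 and 54.4 CPM in WT NPCs, 44.3 and 49.0 CPM in WT-D28 and 50.4 and 53.9 CPM in WT NPC-P4 against 39.8 and 38.9 CPM in dKO NPCs, 59.4 and 32.4 CPM in dKO-D28 and 31.9 and 27.7 CPM in dKO NPC-P4. KDM6B stood at 157 and 184 CPM in WT NPCs, 205 and 189 CPM in WT-D28 and 117 and 127 CPM in WT NPC-P4 against 155 and 159 CPM in dKO NPCs, 146 and 152 CPM in dKO-D28 and 188 and 184 CPM in dKO NPC-P4. No genotype difference of either gene passed 2-fold, but at passage 4 KDM6A was lower (log2 change -0.81 ± 0.22, edgeR adjusted p = 0.0069) and KDM6B higher in dKO (log2 change 0.61 ± 0.11, edgeR adjusted p = 2.2e-04), and KDM6B was lower at D28 (log2 change -0.40 ± 0.10, edgeR adjusted p = 0.0039). Gene-level counts therefore did not check the deletion. By qRT-PCR, the study did not detect the targeted genes in the matching knock-out lines during neural differentiation. That method reads an amplified stretch, whereas the counts here cover the whole gene, so the measures are unlike. The progenitor genes SOX1 and SOX2 were expressed in all groups, but 5 of 13 progenitor markers tested fell in WT-D28, among them PAX6 (304 and 262 CPM in WT NPCs and 11.9 and 11.7 CPM in WT-D28) and PROM1 (103 and 95.4 against 2.88 and 3.02 CPM). Of 6 markers of pluripotent cells, POU5F1 and NANOG were at 0 throughout, and TDGF1 and ZFP42 at or below 0.727 CPM. LIN28A, the 1 marker of this list tested, had 79.9 to 87.5 CPM in NPCs of both genotypes. In dKO it had 32.2 and 80.3 CPM at D28 and 31.4 and 33.8 CPM at passage 4. In WT-D28 and WT NPC-P4 it had 0.514 to 1.002 CPM. DPPA4 had 43.1 and 30.6 CPM in WT NPCs, 18.8 and 10.6 CPM in dKO NPCs and at most 14.1 CPM elsewhere. Over 15 neuron markers, summed levels were 6364 and 6371 CPM in WT-D28 and 6588 and 7294 CPM in WT NPC-P4, but 900 to 2209 CPM in the other 8 samples, with MAPT at or near 0 in every sample. Over 12 mesenchyme markers the sums were 1848 to 4154.5 CPM in dKO samples, against 813 and 1542 CPM in WT NPCs and 377 to 557 CPM in the other WT samples, and over 7 epithelial markers 385 to 1815 CPM against 22.3 to 187 CPM. In dKO-D28, FN1 alone held 1351 and 1846 CPM of the mesenchyme sums. Of 9 mesenchyme markers tested, 4 were called higher and 2 lower in dKO-D28 than in WT-D28. Of 6 neural crest markers tested, 5 were called higher and 0 lower in that comparison, 3 and 0 in dKO at passage 4, and 0 in NPCs. Crest markers summed to 167 and 397 CPM in dKO-D28 and 112 and 114 CPM in WT-D28, of which SOX9 held 113 and 227 CPM and 109 and 111 CPM. Astrocyte markers summed to 2206 and 2415 CPM in WT NPC-P4 and 1218 and 1239 CPM in WT-D28, against 283 and 332 CPM in WT NPCs and 296 to 784 CPM in dKO samples. GJA1, at 250 to 750 CPM, made up most of the sum in each dKO sample. Of 7 astrocyte markers tested, 6 were called lower and 1 higher in dKO at passage 4, and the same at D28. Markers of S and G2/M phase summed to 609 and 639.9 CPM in WT-D28 and to 1609.9 to 2691 CPM in the other samples, with 12 of 12 called lower in WT-D28 than in WT NPCs and 12 of 12 higher in dKO-D28 than in WT-D28. These sums moved with genotype, with differentiation and, for neuron and astrocyte markers, with passage in WT, as did many values below. In WT NPC-P4 against WT NPCs, 10 of 13 neuron and 6 of 7 astrocyte markers tested were called higher, beside 10.3% of all genes. What part the sums had in the values below was not tested. In such bulk samples, fewer cells of a type and less RNA per cell cannot be told apart.

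Per kilobase of exon, the members with the highest mean over the 12 samples were PLXNB2, a receptor of class 4 semaphorins, at 64.99 CPM per kb and the 3 B ephrins, EFNB1 at 58.5, EFNB2 at 52.1 and EFNB3 at 43.1 CPM per kb. They were followed by the receptor kinase EPHA2 at 33.95, PLXNB1 at 31.8 and PLXNA1 at 31.5 CPM per kb. In the other classes, the highest mean levels belonged to SLIT2 (25.6), TENM3 (23.7), SEMA6A (22.2), ROBO1 (20.8), RGMA (19.1), DCC (16.5), EPHB2 (16.3), NTN1 (12.7), EFNA5 (12.2), NRP2 (11.2) and SEMA3F (9.46 CPM per kb). These means pool groups that differ. EFNB3 averaged 120.1 CPM per kb in WT-D28 and 20.1 to 45.2 in the other groups, and EFNB2 9.16 in WT-D28 and 134 in WT NPC-P4. SLIT1 was above SLIT2 in WT-D28 (62.3 against 39.6 CPM per kb) and in WT NPC-P4 (30.2 against 9.76), and NRP1 above NRP2 in dKO-D28 (10.7 against 3.02). The 5 members that were not tested were SEMA3G, EPHA6, EPHA8, EPHB6 and ROBO4. EPHA6 reached 15.03 CPM in a dKO-D28 sample, and the other 4 stayed at or below 3.52 CPM in every sample.

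Summed per kilobase, the Slits stood at 22.5 ± 0.342 CPM per kb in WT NPCs (SD, n = 2) and 103 ± 0.746 in WT-D28, but at 32.8 ± 1.28 in dKO NPCs and 34.9 ± 8.61 in dKO-D28. Robos were at 72.9 ± 5.93 CPM per kb in WT NPC-P4 and 14.6 ± 0.0360 in dKO NPC-P4, and RGMs at 34.1 ± 1.03 and 11.5 ± 0.362 in these groups. Class 3 semaphorins ran the other way, with 15.6 ± 0.220 CPM per kb in WT-D28 and 40.9 ± 13.7 in dKO-D28, as did teneurins with 20.6 ± 0.591 and 49.4 ± 5.84. Membrane-bound semaphorins lay between 112 ± 17.3 and 138 ± 0.120 CPM per kb in all 6 groups.

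To ask how many members changed, each comparison was tested with edgeR, and a gene was called if it differed more than 2-fold with p, before adjustment, below 0.05. Adjusted p denotes the Benjamini-Hochberg value over all 13454 genes, and log2 changes are given with their standard error. On differentiation of WT cells (WT-D28 against WT NPCs), 24 members were called higher and 16 lower, beside 12.9% and 11.5% of all genes. On differentiation of dKO cells (dKO-D28 against dKO NPCs), 5 were called higher and 7 lower, beside 4.01% and 3.14%. Without the first dKO-D28 sample the total rose from 12 to 19. With all libraries, the shares of members, 35.3% and 23.5% in WT and 7.35% and 10.3% in dKO, were above the background in each direction. For rises in dKO this excess is not secure. Except for EFNA1, those 5 rises rested on the second dKO-D28 sample, as given below. With at least 10 counts required in every sample, 0 of 54 members were called higher in dKO-D28, beside 116 of 9967 genes. By adjusted p below 0.05 with the same fold, 23 and 16 members passed in WT and 3 and 7 in dKO.

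Between genotypes, dKO NPCs had 9 members called higher and 4 lower than WT NPCs, beside 2.59% and 1.83% of all genes (7 and 2 by adjusted p). This count rested on single libraries, since it fell from 13 to 6 without the first WT NPC sample and to 6 without the second dKO NPC sample. At passage 4, 15 members were higher and 23 lower in dKO, beside 11.1% and 11.2% (15 and 21 by adjusted p). At D28, 18 were higher and 20 lower, beside 12.4% and 11.7% (18 and 20 by adjusted p). With passage, 15 members rose and 12 fell in WT (10.3% and 9.49% of all genes) and 7 rose and 8 fell in dKO (4.61% and 5.22%). The median log2 change over the 68 members was 0.38 in WT differentiation, -0.26 for genotype at D28, and between -0.06 and 0.14 in the other 5, and over all genes it was at most 0.04. The first value was 0.32 with EFNA1, which was at 0 in WT NPCs, set to its bound.

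**Figure D1:**
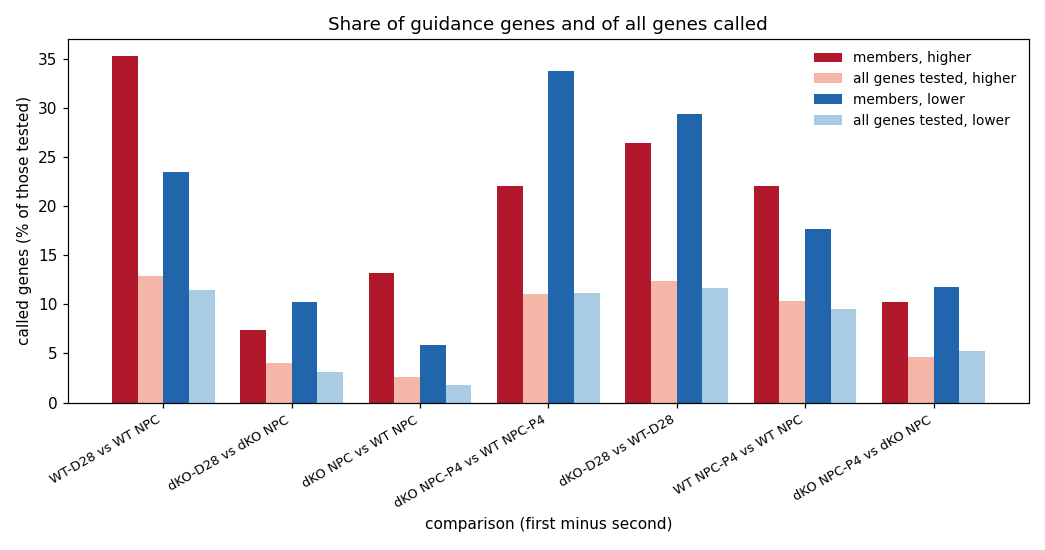
Percent of the 68 members and of all 13454 genes tested that were called higher or lower (vertical axis from 0) in each of 7 comparisons. With all libraries, the member bars exceed the all-gene bars in each direction, as for rises in WT-D28 (35.3% against 12.9%). Most rises in dKO-D28 and the count in dKO NPCs rested on single libraries.

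Whether the same members differed between genotypes was asked over the 3 genotype comparisons, which share no samples. EPHA2, UNC5B and UNC5C were called higher in dKO in all 3, and SEMA5B and PLXNC1 lower in all 3. A further 7 members were higher and 15 lower in exactly 2 of them, and 17 were called in none. Between passage 4 and D28, 8 higher members were shared (53.3% of the passage 4 list and 44.4% of the D28 list), as were 15 lower ones (65.2% and 75.0%). EFNB2, SEMA3A, SEMA7A and TENM4 were lower in dKO at passage 4 and higher at D28. NRP2 and TENM2 were higher in dKO NPCs and lower in dKO-D28. Such overlaps were not counted over all genes, so they are not read as particular to the members.

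EPHA2, an Eph receptor kinase common in epithelia and stem cells, stood at 109.7 and 168 CPM in WT NPCs, 47.6 and 50.001 CPM in WT-D28 and 21.7 and 23.6 CPM in WT NPC-P4. In dKO samples EPHA2 stood at 279 and 342 CPM in dKO NPCs, 150.0 and 128 CPM in dKO-D28 and 195 and 172 CPM in dKO NPC-P4. Each dKO pair lay above its WT pair, most widely at passage 4 (log2 change 3.01 ± 0.18, edgeR adjusted p = 2.1e-09), then at D28 (1.51 ± 0.15) and in NPCs (log2 change 1.123 ± 0.17, edgeR adjusted p = 0.0025). Its call in NPCs was lost without the first WT NPC sample (log2 change 0.88) or the second dKO NPC sample (0.97).

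UNC5B and UNC5C, receptors for repulsive netrin signals, were both higher in dKO. UNC5B had 13.1 and 17.1 CPM in WT NPCs, 12.5 and 11.7 CPM in WT-D28 and 17.4 and 17.5 CPM in WT NPC-P4. The dKO values of UNC5B were 39.8 and 40.3 CPM in dKO NPCs, 54.5 and 33.4 CPM in dKO-D28 and 58.8 and 55.9 CPM in dKO NPC-P4, with no overlap between genotypes at any stage. Its log2 changes were 1.36 ± 0.31, 1.72 ± 0.21 and 1.85 ± 0.20 in NPCs, at passage 4 and at D28 (edgeR adjusted p = 0.024, 5.2e-06 and 8.3e-07). UNC5C had 14.4 and 29.8 CPM in WT NPCs, 5.40 and 7.85 CPM in WT-D28 and 27.7 and 29.3 CPM in WT NPC-P4. In dKO, UNC5C had 51.0 and 84.9 CPM in dKO NPCs, 55.3 and 34.9 CPM in dKO-D28 and 139.6 and 148 CPM in dKO NPC-P4, a rise at D28 of 6.66-fold (log2 change 2.74 ± 0.30, edgeR adjusted p = 1.2e-05). In NPCs the UNC5C difference did not pass on the adjusted p (log2 change 1.52 ± 0.38, edgeR adjusted p = 0.063).

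SEMA5B, a transmembrane semaphorin, was at 132 and 119 CPM in WT NPCs, 102 and 108 CPM in WT-D28 and 138 and 128 CPM in WT NPC-P4. Lower values were found in dKO, where SEMA5B had 77.3 and 47.4 CPM in dKO NPCs, 48.5 and 32.8 CPM in dKO-D28 and 17.3 and 18.6 CPM in dKO NPC-P4. The fall was 7.38-fold at passage 4 (log2 change -2.88 ± 0.20, edgeR adjusted p = 2.5e-08) and 2.61-fold at D28 (log2 change -1.39 ± 0.18, edgeR adjusted p = 1.0e-05), but in NPCs it sat at the 2-fold limit (-1.001 ± 0.22) and was lost without the first WT NPC sample (-0.93) or the second dKO NPC sample (-0.69). PLXNC1, the receptor of SEMA7A, had 117 and 78.3 CPM in WT NPCs, 334 and 321 CPM in WT-D28 and 105 and 120.2 CPM in WT NPC-P4. Its dKO values were 48.8 and 38.9 CPM in dKO NPCs, 39.3 and 25.5 CPM in dKO-D28 and 22.5 and 19.6 CPM in dKO NPC-P4. The genotypes were 10.2-fold apart at D28 (log2 change -3.35 ± 0.19, edgeR adjusted p = 2.8e-09) and 5.35-fold at passage 4 (log2 change -2.42 ± 0.20, edgeR adjusted p = 2.3e-07). In NPCs the PLXNC1 call (-1.118 ± 0.24) was lost without either of the same libraries (-0.84 and -0.96).

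Because these 5 members differed in one direction at every stage, the promoters of the 4 with an entry among RefSeq promoters (GRCh38.p14, 250 bases before to 50 after the start) are shown, read on the gene's strand with matches to CAGNTG on either strand, an E-box core, in capitals.
EPHA2 (chr1:16156020-16156319, minus strand): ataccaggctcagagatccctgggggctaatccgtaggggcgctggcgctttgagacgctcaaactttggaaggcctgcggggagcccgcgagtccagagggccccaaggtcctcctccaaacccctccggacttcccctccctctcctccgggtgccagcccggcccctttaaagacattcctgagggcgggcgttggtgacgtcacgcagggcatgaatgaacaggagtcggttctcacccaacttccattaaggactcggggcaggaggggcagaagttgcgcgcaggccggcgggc
UNC5C (chr4:95548924-95549223, minus strand): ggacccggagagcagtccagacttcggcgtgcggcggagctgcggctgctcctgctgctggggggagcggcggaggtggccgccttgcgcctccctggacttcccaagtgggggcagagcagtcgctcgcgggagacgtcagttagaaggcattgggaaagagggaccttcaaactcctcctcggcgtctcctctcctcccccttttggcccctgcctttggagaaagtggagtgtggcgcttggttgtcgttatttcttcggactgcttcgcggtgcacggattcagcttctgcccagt
SEMA5B (chr3:123028556-123028855, minus strand): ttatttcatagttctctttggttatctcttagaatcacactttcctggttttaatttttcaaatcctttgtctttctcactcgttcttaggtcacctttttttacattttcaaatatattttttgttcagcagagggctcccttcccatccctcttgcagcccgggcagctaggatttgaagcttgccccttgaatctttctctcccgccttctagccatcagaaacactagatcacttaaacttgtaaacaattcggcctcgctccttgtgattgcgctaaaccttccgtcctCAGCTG
PLXNC1 (chr12:94148327-94148626, plus strand): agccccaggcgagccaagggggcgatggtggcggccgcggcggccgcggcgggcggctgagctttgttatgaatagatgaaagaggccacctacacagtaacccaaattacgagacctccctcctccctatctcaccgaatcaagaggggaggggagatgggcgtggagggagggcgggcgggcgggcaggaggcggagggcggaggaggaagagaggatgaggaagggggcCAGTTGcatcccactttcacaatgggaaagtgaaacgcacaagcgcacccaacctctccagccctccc
SEMA5B and PLXNC1 held 1 CAGNTG match each, and EPHA2 and UNC5C held 0. None of the 4 held TGANTCA, the AP-1 motif, which is the same on both strands. Of 35116 RefSeq promoter windows of this length, 49.9% held CAGNTG and 7.71% held TGANTCA, and of the 64 members with an entry 46.9% and 1.56% did. The ratio of observed to expected CpG was 0.64 for EPHA2, 0.73 for UNC5C, 0.59 for SEMA5B and 0.67 for PLXNC1, against a median of 0.58 over all windows and 0.73 over the members. These matches describe the letters only.

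**Figure D2:**
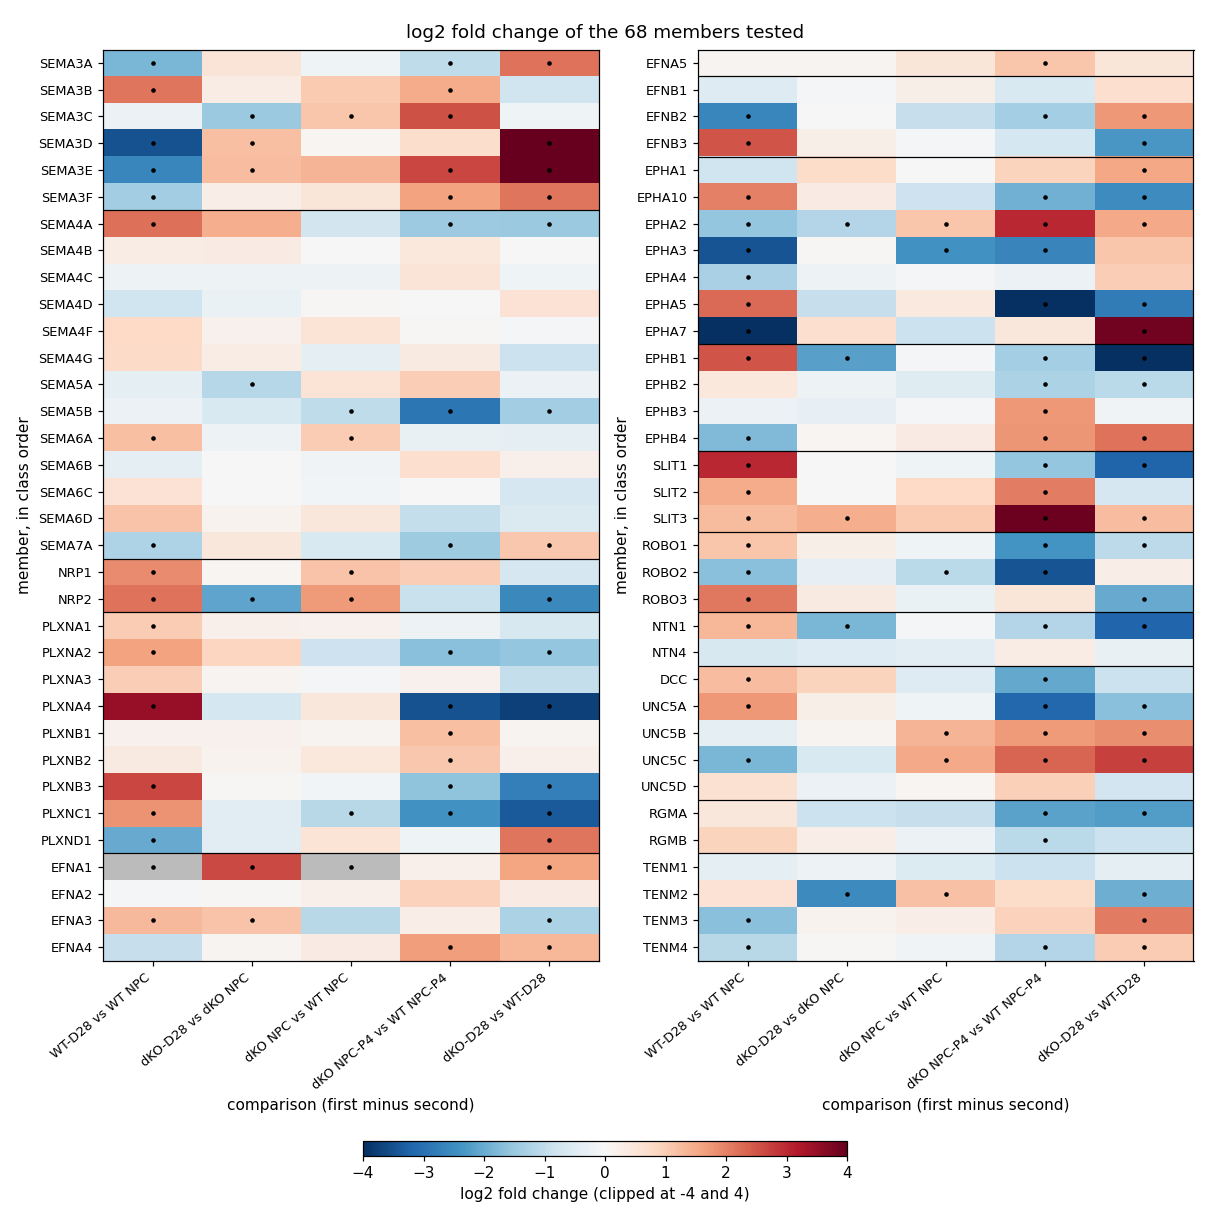
log2 fold change (colour, first group minus second, clipped at -4 and 4) of the 68 tested members in 5 comparisons, with rows in class order, lines between classes and dots on called members. Grey cells mark EFNA1 against WT NPCs, where it was at 0. EPHA5 at passage 4 (-5.33) and SEMA3E at D28 (5.18) are the extremes.

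Counts by class here and below are to be read against the shares of all genes called, given above for each comparison. Among secreted class 3 semaphorins, 1 of 6 rose and 4 fell in WT-D28 (12.9% and 11.5% of all genes). In dKO, 4 were higher and 1 lower at passage 4 (11.1% and 11.2%), and 4 were higher and 0 lower at D28 (12.4% and 11.7%). SEMA3D and SEMA3E had their lowest levels in WT-D28. SEMA3E, which binds PLXND1 without a neuropilin, had 7.83 and 6.71 CPM in WT NPCs, 0.960 and 1.31 CPM in WT-D28 and 3.34 and 5.91 CPM in WT NPC-P4. In dKO, SEMA3E had 18.0 and 18.4 CPM in dKO NPCs, 23.3 and 61.4 CPM in dKO-D28 and 26.7 and 34.8 CPM in dKO NPC-P4, so that it was 36.4-fold higher at D28 (log2 change 5.18 ± 0.50, edgeR adjusted p = 7.1e-06) and 6.43-fold higher at passage 4 (log2 change 2.68 ± 0.49, edgeR adjusted p = 0.0011). SEMA3D had 14.4 and 10.4 CPM in WT NPCs, 1.56 and 0.604 CPM in WT-D28 and 3.01 and 4.62 CPM in WT NPC-P4. In dKO, SEMA3D had 10.5 and 14.9 CPM in dKO NPCs, 22.5 and 35.5 CPM in dKO-D28 and 6.32 and 6.38 CPM in dKO NPC-P4, 27.1-fold above WT at D28 (log2 change 4.76 ± 0.36, edgeR adjusted p = 1.7e-08). Both fell in WT-D28 (log2 change -3.48 ± 0.51 for SEMA3D and -2.60 ± 0.91 for SEMA3E) and both were called higher in dKO-D28 than in dKO NPCs (1.20 ± 0.34 and 1.23 ± 0.45, edgeR adjusted p = 0.035 and 0.13). Without the second dKO-D28 sample (0.82 and 0.35) or the first dKO NPC sample (0.97 and 1.22) neither rise was called, that of SEMA3E was not without the second dKO NPC sample either (1.25), and without either WT NPC sample the fall of SEMA3E was not (log2 change -2.52 and -2.74).

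SEMA3A, the classical repellent that acts through NRP1, had 95.3 and 70.1 CPM in WT NPCs, 24.8 and 20.4 CPM in WT-D28 and 111 and 109 CPM in WT NPC-P4. In dKO, SEMA3A had 78.8 and 63.6 CPM in dKO NPCs, 57.0 and 145 CPM in dKO-D28 and 45.4 and 64.0 CPM in dKO NPC-P4. It fell in WT-D28 (log2 change -1.84 ± 0.49, edgeR adjusted p = 0.019) and was higher in dKO at D28 (log2 change 2.17 ± 0.42, edgeR adjusted p = 0.0031), where the dKO samples differed more than 2-fold, and lower at passage 4 by a call that did not pass on the adjusted p (log2 change -1.01 ± 0.41, edgeR adjusted p = 0.080) and was lost without any of the 4 libraries (log2 change -1.27 to -0.78). SEMA3C, which repels or attracts through neuropilins, had 39.2 and 46.2 CPM in WT NPCs, 34.8 and 39.0 CPM in WT-D28 and 15.03 and 20.3 CPM in WT NPC-P4. In dKO, SEMA3C had 78.8 and 107 CPM in dKO NPCs, 29.3 and 36.5 CPM in dKO-D28 and 101 and 108 CPM in dKO NPC-P4, higher in NPCs (log2 change 1.11 ± 0.21, edgeR adjusted p = 0.0097) and 5.85-fold higher at passage 4 (log2 change 2.55 ± 0.19, edgeR adjusted p = 1.5e-08), though the NPC call was lost without the second dKO NPC sample (0.86). It fell in dKO-D28 against dKO NPCs (log2 change -1.497 ± 0.18, edgeR adjusted p = 4.5e-05) to levels near those of WT-D28. SEMA3F, a ligand of NRP2, had 39.2 and 39.5 CPM in WT NPCs, 14.4 and 15.7 CPM in WT-D28 and 23.1 and 24.9 CPM in WT NPC-P4. In dKO, SEMA3F had 52.5 and 58.7 CPM in dKO NPCs, 56.2 and 76.6 CPM in dKO-D28 and 73.3 and 73.8 CPM in dKO NPC-P4, and the genotypes differed at passage 4 (1.61 ± 0.16) and D28 (2.14 ± 0.16). SEMA3B was the class 3 member that rose in WT-D28 (6.53 and 3.73 CPM to 21.6 and 20.9 CPM, log2 change 2.15 ± 0.41, edgeR adjusted p = 5.3e-04), and it was higher in dKO at passage 4 (15.2 and 13.7 against 6.01 and 4.37 CPM, log2 change 1.497 ± 0.32, edgeR adjusted p = 0.0010).

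Of the 13 membrane-bound semaphorins, 9 were called in none of the genotype comparisons: SEMA4B, SEMA4C, SEMA4D, SEMA4F, SEMA4G, SEMA5A, SEMA6B, SEMA6C and SEMA6D, at 18.3 to 150.2 CPM over all samples. For SEMA4G, 28.0% of exon bases overlap genes on the other strand, so its counts are uncertain. SEMA6A, which signals through class A plexins, had 97.9 and 151 CPM in WT NPCs, 303 and 285 CPM in WT-D28 and 292 and 316 CPM in WT NPC-P4. In dKO, SEMA6A had 253 and 264 CPM in dKO NPCs, 277 and 173 CPM in dKO-D28 and 244 and 249 CPM in dKO NPC-P4. WT NPCs were thus the lowest group, and SEMA6A rose in WT-D28 (log2 change 1.20 ± 0.22, edgeR adjusted p = 8.8e-04), with passage in WT (1.25 ± 0.22) and in dKO NPCs against WT NPCs (log2 change 1.01 ± 0.23, edgeR adjusted p = 0.039). Without the first WT NPC sample, the first and last of these were not called (0.96 and 0.77), and the last was not without the second dKO NPC sample (0.98). SEMA4A, an activator of plexin signalling also known from immune cells, rose in WT-D28 (6.53 and 2.98 to 20.04 and 19.6 CPM, log2 change 2.19 ± 0.74, edgeR adjusted p = 0.033) and was lower in dKO-D28 (12.1 and 2.70 CPM, log2 change -1.47 ± 0.47, edgeR adjusted p = 0.022). These calls were lost without the second WT NPC sample (1.60) and the second dKO-D28 sample (-0.71). At passage 4 the lower SEMA4A of dKO (log2 change -1.46 ± 0.61, edgeR adjusted p = 0.069) was not called without any of the 4 libraries (-1.64 to -1.21). SEMA7A, a membrane-anchored ligand of PLXNC1, had 26.1 and 24.6 CPM in WT NPCs, 10.7 and 10.9 CPM in WT-D28 and 20.4 and 23.1 CPM in WT NPC-P4. In dKO, SEMA7A had 18.0 and 14.9 CPM in dKO NPCs, 21.3 and 23.9 CPM in dKO-D28 and 8.43 and 7.85 CPM in dKO NPC-P4, lower than WT at passage 4 (log2 change -1.42 ± 0.21, edgeR adjusted p = 3.6e-05) and higher at D28 (log2 change 1.07 ± 0.18, edgeR adjusted p = 9.2e-05), a call lost without the second dKO-D28 sample (0.98).

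Both neuropilins rose in WT-D28 and both were higher in dKO NPCs than in WT NPCs. NRP2, co-receptor for SEMA3F, had 32.6 and 70.1 CPM in WT NPCs, 247 and 244 CPM in WT-D28 and 262 and 281 CPM in WT NPC-P4. In dKO, NRP2 had 152 and 205 CPM in dKO NPCs, 50.4 and 33.4 CPM in dKO-D28 and 149.9 and 145 CPM in dKO NPC-P4. It thus rose 4.49-fold in WT differentiation (log2 change 2.17 ± 0.27, edgeR adjusted p = 6.5e-05) and fell 4.30-fold in dKO differentiation (log2 change -2.11 ± 0.24, edgeR adjusted p = 2.8e-04). Against WT, NRP2 was 3.27-fold higher in dKO NPCs (log2 change 1.71 ± 0.28, edgeR adjusted p = 0.010) and 5.91-fold lower in dKO-D28 (log2 change -2.56 ± 0.23, edgeR adjusted p = 3.1e-06). NRP1, co-receptor for SEMA3A and for VEGF, had 37.9 and 64.1 CPM in WT NPCs, 204 and 193 CPM in WT-D28 and 69.2 and 79.1 CPM in WT NPC-P4. In dKO, NRP1 had 115 and 122 CPM in dKO NPCs, 102 and 145 CPM in dKO-D28 and 139 and 154 CPM in dKO NPC-P4, higher in NPCs (log2 change 1.15 ± 0.23, edgeR adjusted p = 0.013) and without a called change on differentiation (0.07 ± 0.18), against a rise in WT (log2 change 1.89 ± 0.21, edgeR adjusted p = 3.9e-06). The NPC call of NRP1 was lost without the first WT NPC sample (0.88). The WT NPC samples differed more than 2-fold for NRP2.

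Among the 9 plexins, 5 rose and 1 fell in WT-D28 (12.9% and 11.5% of all genes), and 4 were lower in dKO at both passage 4 and D28. In dKO-D28 against dKO NPCs 0 were called, beside 4.01% and 3.14% of all genes. With 9 members and shares this small, that 0 is not read as a difference from all genes. PLXNA4, a receptor for SEMA3A and class 6 semaphorins, had 20.9 and 16.4 CPM in WT NPCs, 209.6 and 194 CPM in WT-D28 and 192 and 209 CPM in WT NPC-P4. In dKO, PLXNA4 had 28.5 and 21.2 CPM in dKO NPCs, 23.5 and 7.91 CPM in dKO-D28 and 17.3 and 18.9 CPM in dKO NPC-P4. No dKO sample exceeded 28.5 CPM, which left a difference of 11.1-fold at passage 4 (log2 change -3.47 ± 0.32, edgeR adjusted p = 1.7e-05) and 13.3-fold at D28 (log2 change -3.73 ± 0.32, edgeR adjusted p = 7.3e-06). PLXNB3, a SEMA5A receptor, had 5.22 and 3.73 CPM in WT NPCs, 28.8 and 26.8 CPM in WT-D28 and 27.4 and 28.3 CPM in WT NPC-P4. In dKO, PLXNB3 had 3.003 and 4.95 CPM in dKO NPCs, 6.79 and 1.93 CPM in dKO-D28 and 8.90 and 9.32 CPM in dKO NPC-P4, lower at passage 4 (-1.61 ± 0.30) and D28 (log2 change -2.73 ± 0.32, edgeR adjusted p = 2.3e-06). SRPK3 shares 20.4% of its exon bases, so its counts are uncertain. PLXNA2 was highest in WT NPC-P4, at 387 and 406 CPM against 125 and 124 CPM in dKO NPC-P4 (log2 change -1.67 ± 0.27, edgeR adjusted p = 7.6e-04) and 45.7 and 47.7 CPM in WT NPCs. PLXND1, the SEMA3E receptor known from vessels, moved the other way. It had 44.4 and 75.3 CPM in WT NPCs, 15.5 and 15.4 CPM in WT-D28 and 74.2 and 91.2 CPM in WT NPC-P4. In dKO, PLXND1 had 92.3 and 90.5 CPM in dKO NPCs, 67.1 and 69.5 CPM in dKO-D28 and 76.1 and 70.6 CPM in dKO NPC-P4, so that its level in WT-D28 was below all others (log2 change -2.01 ± 0.20, edgeR adjusted p = 8.9e-07) and dKO-D28 was 4.42-fold higher (log2 change 2.14 ± 0.17, edgeR adjusted p = 2.4e-08).

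PLXNB1 and PLXNB2, receptors for class 4 semaphorins that are also found in progenitors and epithelia, were higher in dKO at passage 4. PLXNB2 had 765 and 726 CPM in dKO NPC-P4 and 358 and 355 CPM in WT NPC-P4 (log2 change 1.06 ± 0.12, edgeR adjusted p = 2.5e-06). PLXNB1 had 412 and 382 CPM in dKO NPC-P4 against 186 and 163 CPM in WT NPC-P4 (log2 change 1.19 ± 0.13, edgeR adjusted p = 1.4e-06). PLXNA1 rose on WT differentiation from 248 and 309 to 556 and 571 CPM (1.01 ± 0.11), at the 2-fold limit, and the call was lost without the first WT NPC sample (0.87) or the second WT-D28 sample (0.99). PLXNA1 and PLXNA3 were called in no genotype comparison.

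EFNB2 and EFNB3 moved in opposite directions on WT differentiation. EFNB2, which marks arteries and progenitors, had 311 and 257 CPM in WT NPCs, 44.9 and 46.8 CPM in WT-D28 and 638 and 707 CPM in WT NPC-P4. In dKO, EFNB2 had 167 and 133 CPM in dKO NPCs, 151 and 154 CPM in dKO-D28 and 256 and 267 CPM in dKO NPC-P4. It fell 6.14-fold in WT-D28 (log2 change -2.62 ± 0.13, edgeR adjusted p = 5.6e-10) and was not called in dKO-D28 (0.03 ± 0.13), while dKO was lower at passage 4 (log2 change -1.36 ± 0.12, edgeR adjusted p = 1.0e-07) and higher at D28 (log2 change 1.73 ± 0.12, edgeR adjusted p = 8.9e-09). EFNB3, a midline repellent in the spinal cord and forebrain, had 74.4 and 62.6 CPM in WT NPCs, 386 and 387 CPM in WT-D28 and 153 and 137 CPM in WT NPC-P4. In dKO, EFNB3 had 63.8 and 65.8 CPM in dKO NPCs, 78.5 and 75.5 CPM in dKO-D28 and 92.3 and 87.1 CPM in dKO NPC-P4, and it rose 5.72-fold in WT-D28 (log2 change 2.52 ± 0.13, edgeR adjusted p = 5.6e-10) and was 5.02-fold lower in dKO-D28 (log2 change -2.33 ± 0.11, edgeR adjusted p = 9.6e-11). EFNB1 was called in no comparison, at 127 to 266 CPM. As shares of the summed ephrin-B level per kilobase, EFNB3 made 71.1% and 71.6% in WT-D28 and 19.4% and 21.8% in dKO-D28. Of the bases in EFNB2 exons, 36.4% also lie in an exon of an antisense gene, and the library kit does not mark strand.

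Ephrin-A ligands were lower in level, and EFNA1 was at 0 in both WT NPC samples. EFNA1 had 3.84 and 3.72 CPM in WT-D28, at least 1.23-fold higher than WT NPCs when these are set at 3 counts in each library. That call was lost without the second WT NPC sample (edgeR adjusted p = 0.13), and the call in dKO NPCs without either WT NPC sample or the second dKO NPC sample (edgeR adjusted p = 0.32 with all samples and 0.57 to 0.78 without them). EFNA1 is counted among the 24 rises in WT-D28, the 9 members called higher in dKO NPCs and the 7 members higher in exactly 2 genotype comparisons, and these counts include calls that rest on those libraries. It had 6.79 and 15.6 CPM in dKO-D28 (log2 change 1.59 ± 0.35, edgeR adjusted p = 0.0014). EFNA1 had 0.751 and 2.83 CPM in dKO NPCs, and no fold is given for its call there, since with 3 counts set in each WT NPC library it was not above the bound. EFNA4 was higher in dKO at passage 4 (14.3 and 14.2 against 3.34 and 5.39 CPM, log2 change 1.67 ± 0.38, edgeR adjusted p = 0.0017) and at D28 (10.2 and 19.3 against 5.88 and 5.94 CPM, log2 change 1.33 ± 0.31, edgeR adjusted p = 0.0017). Without the second dKO-D28 sample, neither EFNA1 (0.84) nor EFNA4 (0.78) was called at D28. EFNA5, which shapes topographic maps, was higher in dKO at passage 4 (64.9 and 72.1 against 29.1 and 34.4 CPM, log2 change 1.10 ± 0.28, edgeR adjusted p = 0.0085), a call lost without the first WT NPC-P4 sample (0.99). EFNA3 rose in WT-D28 (3.92 and 5.22 to 13.3 and 10.2 CPM, log2 change 1.303 ± 0.40, edgeR adjusted p = 0.015) and was lower in dKO-D28 (-1.28 ± 0.28). A readthrough gene covers 43.9% of EFNA3 and 15.04% of EFNA4 exon bases, so their counts are uncertain. EFNA2 was called in none of the genotype comparisons.

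EphA receptors split into members lost and gained on WT differentiation, and EPHA2 has been given above. EPHA7, expressed by progenitors of the cortex, had 96.6 and 70.1 CPM in WT NPCs, 4.08 and 5.53 CPM in WT-D28 and 82.5 and 94.3 CPM in WT NPC-P4. In dKO, EPHA7 had 56.3 and 34.7 CPM in dKO NPCs, 63.8 and 78.9 CPM in dKO-D28 and 117 and 125 CPM in dKO NPC-P4. It fell 16.7-fold in WT-D28 (log2 change -4.06 ± 0.25, edgeR adjusted p = 7.7e-09), and dKO-D28 was 14.7-fold higher than WT-D28 (log2 change 3.87 ± 0.22, edgeR adjusted p = 1.2e-09) with no call at passage 4 (0.45 ± 0.17). EPHA5, a receptor of topographic mapping, had 3.92 and 5.22 CPM in WT NPCs, 23.0 and 22.6 CPM in WT-D28 and 98.5 and 135 CPM in WT NPC-P4. In dKO, EPHA5 had 3.75 and 8.49 CPM in dKO NPCs, 3.88 and 2.70 CPM in dKO-D28 and 3.28 and 2.452 CPM in dKO NPC-P4, at most 8.49 CPM in any sample. It was 40.3-fold lower in dKO at passage 4 (log2 change -5.33 ± 0.26, edgeR adjusted p = 2.0e-10) and 7.002-fold lower at D28 (log2 change -2.81 ± 0.27, edgeR adjusted p = 2.4e-07). EPHA3, which binds A ephrins, had 178 and 117 CPM in WT NPCs, 13.6 and 12.8 CPM in WT-D28 and 131 and 142 CPM in WT NPC-P4. In dKO, EPHA3 had 42.0 and 12.7 CPM in dKO NPCs, 41.2 and 16.4 CPM in dKO-D28 and 23.0 and 20.6 CPM in dKO NPC-P4, called lower in NPCs without passing on the adjusted p (log2 change -2.41 ± 0.58, edgeR adjusted p = 0.093) and lower at passage 4 (log2 change -2.65 ± 0.47, edgeR adjusted p = 0.0027). EPHA3 fell in WT-D28 (log2 change -3.45 ± 0.50, edgeR adjusted p = 0.0010) to the dKO range. EPHA10, which lacks kinase activity, rose in WT-D28 (3.92 and 11.2 to 34.7 and 33.8 CPM, log2 change 2.02 ± 0.46, edgeR adjusted p = 0.0025) and was lower in dKO-D28 (8.97 and 3.28 CPM, log2 change -2.53 ± 0.35, edgeR adjusted p = 3.3e-05). EPHA4, a receptor for both ephrin kinds, fell in WT-D28 (234 and 228 to 91.7 and 96.8 CPM, log2 change -1.29 ± 0.11, edgeR adjusted p = 2.2e-07) and was called in no genotype comparison. EPHA1 was higher in dKO-D28 (12.1 and 19.3 against 6.48 and 4.43 CPM, log2 change 1.55 ± 0.28, edgeR adjusted p = 2.0e-04).

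The EphB receptors EPHB1 and EPHB4 moved in opposite directions. EPHB1, which turns retinal axons at the optic chiasm, had 36.6 and 25.3 CPM in WT NPCs, 167 and 170.3 CPM in WT-D28 and 49.8 and 48.5 CPM in WT NPC-P4. In dKO, EPHB1 had 30.8 and 26.9 CPM in dKO NPCs, 7.27 and 5.60 CPM in dKO-D28 and 18.3 and 20.1 CPM in dKO NPC-P4. It rose 5.66-fold in WT differentiation (log2 change 2.50 ± 0.17, edgeR adjusted p = 1.8e-08) and fell 4.51-fold in dKO differentiation (log2 change -2.17 ± 0.23, edgeR adjusted p = 1.0e-05), leaving dKO-D28 26.4-fold lower (log2 change -4.72 ± 0.17, edgeR adjusted p = 5.8e-12). EPHB4, the EFNB2 receptor of veins, had 90.1 and 101 CPM in WT NPCs, 30.1 and 26.5 CPM in WT-D28 and 40.8 and 36.2 CPM in WT NPC-P4. In dKO, EPHB4 had 119 and 121 CPM in dKO NPCs, 107 and 146 CPM in dKO-D28 and 126 and 133 CPM in dKO NPC-P4, between 107 and 146 CPM in every sample and higher than WT at passage 4 (log2 change 1.75 ± 0.15, edgeR adjusted p = 1.3e-07) and D28 (log2 change 2.17 ± 0.14, edgeR adjusted p = 4.6e-09). EPHB3 was 3.34-fold higher in dKO NPC-P4 (48.7 and 48.3 against 14.03 and 14.9 CPM, log2 change 1.74 ± 0.19, edgeR adjusted p = 1.6e-06), where WT NPC-P4 was the lowest group. EPHB2 was lower in dKO at passage 4 (log2 change -1.25 ± 0.11, edgeR adjusted p = 1.0e-07) and D28 (log2 change -1.09 ± 0.10, edgeR adjusted p = 2.0e-07).

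The 3 Slits differed in which genotype held more. SLIT1, found in neurons, had 80.9 and 61.9 CPM in WT NPCs, 574 and 566 CPM in WT-D28 and 276 and 275 CPM in WT NPC-P4. In dKO, SLIT1 had 63.8 and 60.1 CPM in dKO NPCs, 87.3 and 38.0 CPM in dKO-D28 and 99.1 and 88.3 CPM in dKO NPC-P4, 9.21-fold lower than WT at D28 (log2 change -3.20 ± 0.31, edgeR adjusted p = 3.1e-05) and 2.94-fold lower at passage 4 (log2 change -1.56 ± 0.29, edgeR adjusted p = 0.0025). SLIT2, also made by the floor plate and by mesenchyme, had 145 and 168 CPM in WT NPCs, 439.5 and 438 CPM in WT-D28 and 105 and 111 CPM in WT NPC-P4. In dKO, SLIT2 had 264 and 285 CPM in dKO NPCs, 323 and 223 CPM in dKO-D28 and 419 and 481 CPM in dKO NPC-P4, 4.16-fold higher at passage 4 (log2 change 2.06 ± 0.15, edgeR adjusted p = 1.8e-08) and not called at D28 (-0.69 ± 0.14). SLIT3 had 3.92 and 11.2 CPM in WT NPCs, 20.04 and 21.1 CPM in WT-D28 and 12.4 and 13.4 CPM in WT NPC-P4. In dKO, SLIT3 had 15.01 and 19.8 CPM in dKO NPCs, 31.5 and 63.5 CPM in dKO-D28 and 208 and 188 CPM in dKO NPC-P4, 15.3-fold higher at passage 4 (log2 change 3.94 ± 0.30, edgeR adjusted p = 1.0e-06). At D28 it was higher in dKO (log2 change 1.22 ± 0.26, edgeR adjusted p = 0.0023), a call lost without the second dKO-D28 sample (0.61). SLIT1 made 60.4% and 60.1% of the summed Slit level per kilobase in WT-D28 and 74.4% and 73.3% in WT NPC-P4, against 14.5% to 23.3% in the 6 dKO samples. All 3 were called higher in WT-D28 than in WT NPCs (log2 change 3.03 ± 0.34, 1.48 ± 0.16 and 1.28 ± 0.50). That of SLIT3 had an edgeR adjusted p of 0.058 and was lost without the first WT NPC sample (0.88) or the second WT-D28 sample (1.24).

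ROBO1 and ROBO2, the main Slit receptors, were highest in WT NPC-P4. ROBO1 had 144 and 151 CPM in WT NPCs, 323 and 318 CPM in WT-D28 and 493 and 562 CPM in WT NPC-P4. In dKO, ROBO1 had 132 and 129 CPM in dKO NPCs, 155 and 154 CPM in dKO-D28 and 95.3 and 105 CPM in dKO NPC-P4, 5.27-fold lower at passage 4 (log2 change -2.40 ± 0.11, edgeR adjusted p = 7.5e-11) and 2.07-fold lower at D28 (log2 change -1.05 ± 0.10, edgeR adjusted p = 2.6e-07). ROBO2 had 154 and 126 CPM in WT NPCs, 45.01 and 41.4 CPM in WT-D28 and 354 and 402 CPM in WT NPC-P4. In dKO, ROBO2 had 88.6 and 42.4 CPM in dKO NPCs, 52.8 and 50.2 CPM in dKO-D28 and 28.1 and 41.0 CPM in dKO NPC-P4, 10.96-fold lower at passage 4 (log2 change -3.45 ± 0.25, edgeR adjusted p = 7.5e-07) but not called at D28 (0.25 ± 0.24). It fell in WT-D28 (log2 change -1.68 ± 0.26, edgeR adjusted p = 3.2e-04). In NPCs the lower ROBO2 of dKO did not pass on the adjusted p (log2 change -1.09 ± 0.29, edgeR adjusted p = 0.081) and was lost without the first WT NPC sample (-0.95) or the second dKO NPC sample (-0.64). ROBO3, which lets commissural axons cross the midline, rose in WT-D28 (19.6 and 20.1 to 85.3 and 88.2 CPM, log2 change 2.12 ± 0.25, edgeR adjusted p = 4.4e-06) and was 4.01-fold lower in dKO-D28 (24.2 and 19.3 CPM, log2 change -2.00 ± 0.19, edgeR adjusted p = 2.0e-07).

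**Figure D3:**
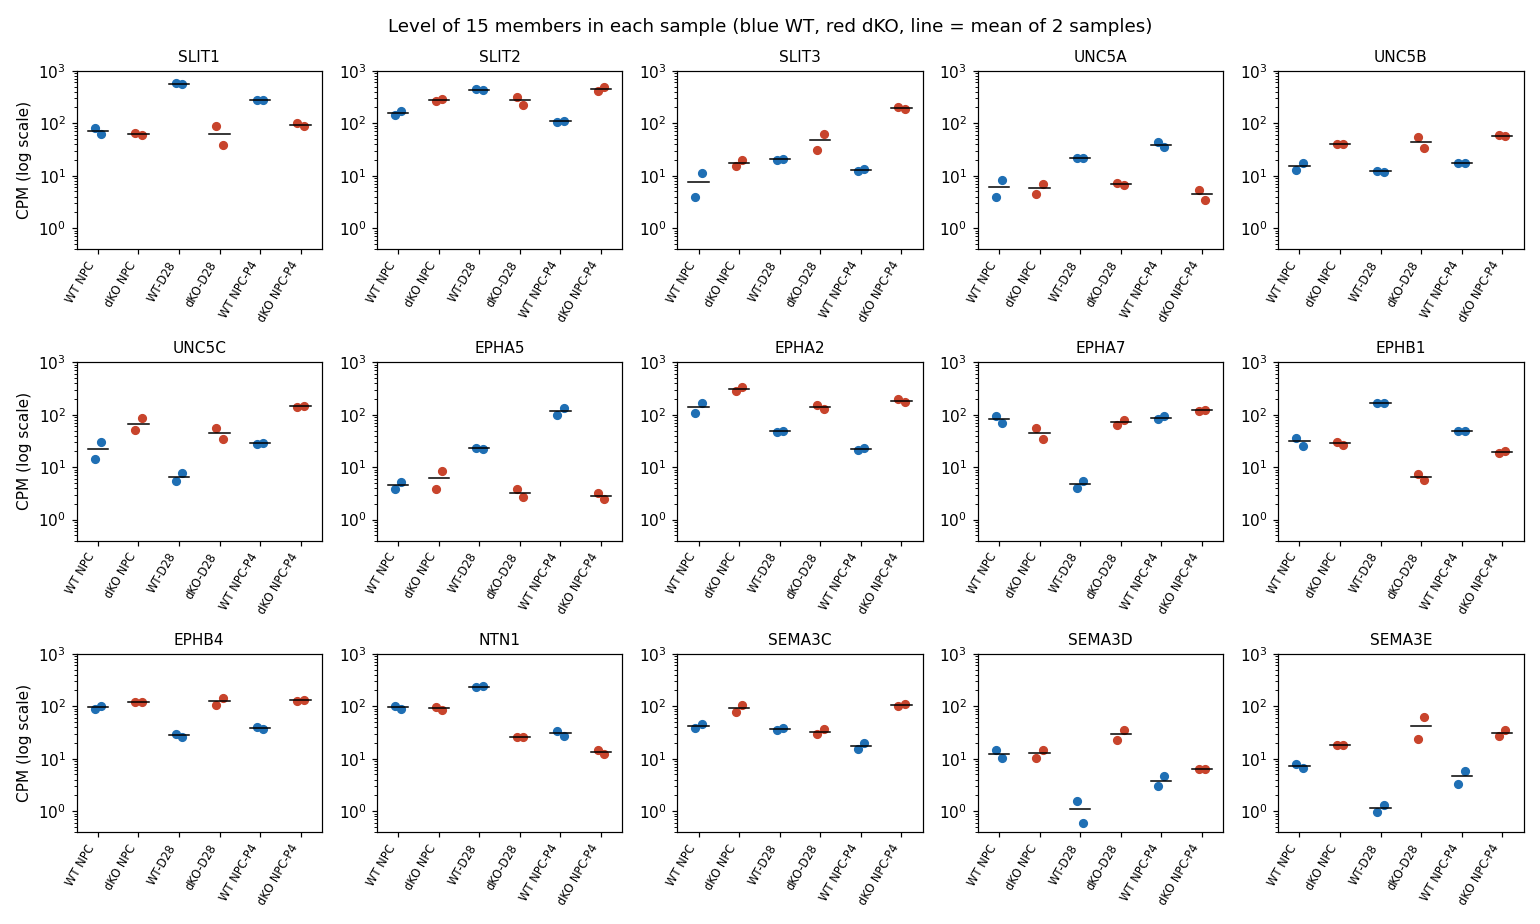
CPM on a log axis of 15 members in each of the 12 samples, by group, with lines at the means of 2 samples. SLIT1, UNC5A, EPHA5, EPHB1 and NTN1 were lower in dKO-D28 than in WT-D28, and SLIT3, UNC5B, UNC5C, EPHA2, EPHA7, EPHB4, SEMA3D and SEMA3E higher.

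NTN1, which encodes netrin-1, had 101 and 88.7 CPM in WT NPCs, 229 and 238 CPM in WT-D28 and 33.4 and 27.5 CPM in WT NPC-P4. In dKO, NTN1 had 96.1 and 86.3 CPM in dKO NPCs, 25.9 and 25.9 CPM in dKO-D28 and 14.8 and 12.02 CPM in dKO NPC-P4. The NPC groups overlapped (-0.04 ± 0.15), after which NTN1 rose in WT-D28 (log2 change 1.32 ± 0.14, edgeR adjusted p = 1.1e-06) and fell in dKO-D28 (log2 change -1.81 ± 0.15, edgeR adjusted p = 1.2e-06), a difference of 9.01-fold between genotypes (log2 change -3.17 ± 0.13, edgeR adjusted p = 3.2e-11). It also fell with passage in both (log2 change -1.63 ± 0.16 in WT and -2.76 ± 0.16 in dKO). NTN4, a laminin-binding netrin, was called in no genotype comparison.

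Of the netrin receptors, DCC and UNC5A were lower in dKO and UNC5B and UNC5C, described above, higher. DCC, the attractive receptor, had 159 and 145 CPM in WT NPCs, 360.2 and 355 CPM in WT-D28 and 349.8 and 427 CPM in WT NPC-P4. In dKO, DCC had 115 and 99.0 CPM in dKO NPCs, 252 and 147 CPM in dKO-D28 and 92.8 and 96.9 CPM in dKO NPC-P4, 4.10-fold lower at passage 4 (log2 change -2.04 ± 0.21, edgeR adjusted p = 8.9e-06) and not called in NPCs (-0.50 ± 0.24) or at D28 (-0.84 ± 0.19). UNC5A had 3.92 and 8.20 CPM in WT NPCs, 22.2 and 22.0 CPM in WT-D28 and 43.1 and 35.2 CPM in WT NPC-P4. In dKO, UNC5A had 4.50 and 7.07 CPM in dKO NPCs, 7.27 and 6.56 CPM in dKO-D28 and 5.39 and 3.43 CPM in dKO NPC-P4, 8.75-fold lower at passage 4 (log2 change -3.13 ± 0.26, edgeR adjusted p = 6.5e-08) and 3.20-fold lower at D28 (log2 change -1.68 ± 0.23, edgeR adjusted p = 1.5e-05). UNC5C fell in WT-D28 (log2 change -1.82 ± 0.43, edgeR adjusted p = 0.0050), a call lost without the second WT NPC sample (-1.10). At passage 4, DCC made 57.6% and 63.0% of the summed level of the 5 receptors per kilobase in WT and 18.0% and 18.2% in dKO, while UNC5C made 5.60% and 5.30% in WT and 33.2% and 34% in dKO. UNC5D was called in no genotype comparison (0.95 ± 0.17 at passage 4).

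RGMA, a repellent that binds neogenin, had 393 and 365 CPM in WT NPCs, 515 and 521 CPM in WT-D28 and 259.9 and 247 CPM in WT NPC-P4. In dKO, RGMA had 224 and 175 CPM in dKO NPCs, 107 and 113 CPM in dKO-D28 and 56.5 and 59.3 CPM in dKO NPC-P4, with no overlap between genotypes at any stage. It was 4.38-fold lower at passage 4 (log2 change -2.13 ± 0.12, edgeR adjusted p = 9.6e-10) and 4.71-fold lower at D28 (log2 change -2.23 ± 0.12, edgeR adjusted p = 3.1e-10), and in NPCs it stayed under the 2-fold limit (log2 change -0.92 ± 0.12, edgeR adjusted p = 0.0012). RGMB was lower in dKO at passage 4 (46.6 and 48.6 against 91.2 and 107 CPM, log2 change -1.06 ± 0.25, edgeR adjusted p = 0.0045), a call lost without the second WT NPC-P4 sample (-0.94). Of RGMB exon bases, 45.8% lie in exons of antisense genes, so its counts are uncertain.

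Teneurins TENM3 and TENM4 fell in WT-D28 and TENM2 did not. TENM3 had 311 and 366 CPM in WT NPCs, 109.6 and 104 CPM in WT-D28 and 140.0 and 142 CPM in WT NPC-P4. In dKO, TENM3 had 404 and 410.2 CPM in dKO NPCs, 398 and 496 CPM in dKO-D28 and 250.2 and 280.3 CPM in dKO NPC-P4, 4.18-fold higher at D28 (log2 change 2.06 ± 0.12, edgeR adjusted p = 1.2e-09). TENM2 had 66.6 and 78.3 CPM in WT NPCs, 114 and 103 CPM in WT-D28 and 28.7 and 29.8 CPM in WT NPC-P4. In dKO, TENM2 had 173 and 158 CPM in dKO NPCs, 29.6 and 26.8 CPM in dKO-D28 and 49.9 and 47.3 CPM in dKO NPC-P4, 2.26-fold higher in NPCs (log2 change 1.17 ± 0.14, edgeR adjusted p = 0.0012) and, after a 5.88-fold fall on differentiation (log2 change -2.56 ± 0.14, edgeR adjusted p = 1.9e-08), 3.85-fold lower at D28 (log2 change -1.95 ± 0.13, edgeR adjusted p = 3.7e-09). TENM4 had 162 and 160.3 CPM in WT NPCs, 76.3 and 73.7 CPM in WT-D28 and 314 and 326 CPM in WT NPC-P4. In dKO, TENM4 had 170.4 and 122 CPM in dKO NPCs, 138 and 166 CPM in dKO-D28 and 138 and 146 CPM in dKO NPC-P4, lower at passage 4 (log2 change -1.17 ± 0.13, edgeR adjusted p = 1.8e-06) and higher at D28 (log2 change 1.02 ± 0.13, edgeR adjusted p = 6.3e-06), the latter a call lost without the second dKO-D28 sample (0.88) or the second WT-D28 sample (0.99). TENM1 was called in none.

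Set side by side, differentiation moved fewer members in dKO than in WT. Of all 13454 genes, 961 were called in dKO and 3281 in WT. Of the 24 members that rose in WT-D28, with a median log2 change of 1.96 (1.84 with EFNA1 at its bound), 3 rose in dKO-D28 (EFNA1, EFNA3 and SLIT3), 3 fell (EPHB1, NRP2 and NTN1) and the median was 0.22. Of the 16 that fell, with a median of -1.79, 1 fell in dKO-D28 (EPHA2), 2 rose (SEMA3D and SEMA3E) and the median was 0.07. The WT medians follow from choosing these members by their WT change, and the same split was not made over all genes. The difference between the 2 genotypes' changes, tested as an interaction in edgeR, was called higher in dKO for 16 members and lower for 18, beside 12% and 11.1% of all genes. The same test for passage gave 10 and 15, beside 9.72% and 9.57%. Except for EFNA1, the rises in dKO-D28 rested on its second sample, without which EFNA3 (0.99, and 0.68 without the second dKO NPC sample) and SLIT3 (0.85) were no longer called, nor were the 2 semaphorins given above. SEMA5A, which can attract or repel, was the remaining member to fall in dKO-D28 (145 and 142 to 59.4 and 71.6 CPM, log2 change -1.13 ± 0.16, edgeR adjusted p = 2.4e-04).

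With passage, members that rose in WT NPC-P4 included EPHA5 (log2 change 4.62 ± 0.33, edgeR adjusted p = 2.9e-08), PLXNA4 (log2 change 3.47 ± 0.41, edgeR adjusted p = 1.6e-04), PLXNA2 (log2 change 3.08 ± 0.34, edgeR adjusted p = 1.3e-04), UNC5A (2.56 ± 0.33) and NRP2 (2.31 ± 0.27). EPHA5 and UNC5A stood at 3 counts in the first WT NPC sample, so the size of these 2 rises is uncertain. EPHA2 (log2 change -2.65 ± 0.20, edgeR adjusted p = 7.2e-08) and EPHB3 (-2.42 ± 0.21) fell most. In dKO the largest rise was that of SLIT3 (log2 change 3.50 ± 0.34, edgeR adjusted p = 4.6e-05) and the largest fall that of NTN1. Rises shared by both genotypes were those of PLXNA2 and PLXNB3 (13.3% of the WT list and 28.6% of the dKO list), and shared falls those of EPHA4, NTN1 and TENM2 (25% and 37.5%). Sharing was not counted over all genes. EPHA5 rose in WT and was called lower in dKO. Calls lost with a library left out were, in dKO, EPHA5 (-0.38 without the second dKO NPC sample and -0.91 without the second dKO NPC-P4 sample), PLXNB3 (0.88 to 1.59 without any of the 4), PLXNC1 and SEMA7A (-0.88 and -0.86 without the first dKO NPC sample, -0.96 and -0.96 without the second dKO NPC-P4 sample), UNC5C (0.76 without the first dKO NPC sample) and UNC5D (0.93 without the second). In WT they were EFNA4 (-0.22), EFNB3 (0.96) and SEMA6D (2.02) without the second WT NPC sample, and EFNA4 (-1.04) without the first WT NPC-P4 sample. Under the correction for GC content and gene length with the replicate block, the dKO split was 8 higher and 6 lower.

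Genes that work with the members were followed in 4 lists, whose shares are to be read against the shares of all genes called that are given above for each comparison. Of 16 co-receptors and adhesion partners tested, 5 rose and 3 fell in WT-D28, and 1 and 3 did in dKO-D28. In dKO against WT, 2 of these were higher and 1 lower in NPCs, 3 and 7 at passage 4, and 3 and 6 at D28. Of 18 other ligands and ligand partners, 8 rose and 7 fell in WT-D28 and 1 and 1 in dKO-D28, while in dKO against WT 0 were called in NPCs, 2 were higher and 4 lower at passage 4, and 7 and 7 at D28. Of 30 kinases, adaptors and cytoskeletal effectors, 5 rose and 3 fell in WT-D28 and 1 and 0 in dKO-D28, and dKO had 1 higher and 1 lower in NPCs, 2 and 7 at passage 4, and 2 and 6 at D28. In WT-D28 the shares of this list, 16.7% higher and 10% lower, were near those of all genes (12.9% and 11.5%), as were its 3.33% and 3.33% in NPCs (2.59% and 1.83%), while 23.3% and 20% were lower at passage 4 and D28 (11.2% and 11.7% of all genes). Co-receptors were lower in 43.8% and 37.5% at these stages, and other ligands in 22.2% and 38.9%. The 5 called genes among the 8 collapsin response mediators and MICALs were lower in dKO at passage 4 and again 5 at D28, among them CRMP1 (1038 and 1046 CPM in WT-D28 and 279 and 211 CPM in dKO-D28, log2 change -2.09 ± 0.12, edgeR adjusted p = 7.8e-10), which carries semaphorin signals to the cytoskeleton. The adhesion molecules NRCAM and DSCAML1 were 16.0-fold (log2 change -3.999 ± 0.29, edgeR adjusted p = 3.7e-06) and 17.2-fold lower at passage 4. SHH, a midline attractant, had 62.4 and 63.5 CPM in WT-D28 and 0.485 and 0.193 CPM in dKO-D28, and 2.67 and 5.91 CPM in WT NPC-P4 and 0.234 and 0.245 CPM in dKO NPC-P4. ABLIM3, an actin-binding protein, was 11.6-fold lower at D28 and DSCAML1 10.9-fold. Higher in dKO were ITGA1 (36.0-fold), KDR, the VEGF receptor (27.3-fold), and SDC1 (3.50-fold) at passage 4, and RELN (31.2-fold), KDR (24.1-fold) and the SHH co-receptor CDON (17.6-fold) at D28. In NPCs, ITGA1 (1.72) and ABLIM1 (1.15) were higher and DSCAM (-1.20, edgeR adjusted p = 0.18) lower on the log2 scale, and ABLIM3 was at 0 in dKO NPCs and below 3 counts in each WT NPC sample.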

How the data were processed

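RNA-seq libraries of 12 samples (6 groups of 2) were analysed from gene counts. Per the labels and the study's methods, the authors deposited raw read counts per gene for each sample, made with HISAT2 2.0.4, SAMtools 1.3.1 and HTSeq 0.6.0 on hg38, and their processing notes also name DESeq 1.18.1. The TruSeq kit does not mark strand, so reads of overlapping genes cannot be told apart.

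Members were chosen by symbol, and the members and gene lists were chosen with earlier results of these data known. Genes with a mean of 20 counts or more were fitted together in edgeR 4.0.16 (quasi-likelihood test, TMM library sizes, all 6 groups, R 4.3.3, limma 3.58.1), and were called where they differed more than 2-fold with p, before adjustment, below 0.05, and adjusted p is the Benjamini-Hochberg value over the genes tested. Exact permutation of 2 against 2 samples cannot go below a two-sided p of 0.333, so none was used. Named in full were non-overlapping called members with the 10 largest rises and falls in 4 comparisons, the highest member of each class, interaction calls by adjusted p, the targeted genes, and the 3 largest rises and falls among partners, of which some are not reported here. Others named for class accounts were chosen after their values were seen. Library totals were 756942 to 10601172 counts, and the floor of 3 counts covers counting error only. Steps were tested on simulated data. Alternatives were DESeq2 1.42.0, RLE library sizes, no filter, a minimum of 10 counts in each sample, the replicate block, offsets that correct for GC and gene length (alone and with the block), only the compared samples, adjusted p, and leaving out each library. Exon lengths and overlaps came from GENCODE 44 and promoters from RefSeq (GRCh38.p14).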

Additional observations from a re-analysis of the deposited data

Results flagged for a closer look

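For 33 members the change on differentiation differed between dKO and WT cells, by an edgeR interaction test of the difference itself with an adjusted p below 0.05 and more than 2-fold. Of all 13454 genes tested, 2718 passed the same rule. Values are log2 differences, the dKO change minus the WT change. The difference was above 0 for SEMA3A (2.36), SEMA3D (4.67), SEMA3E (3.84), SEMA3F (1.64), SEMA7A (1.69), PLXND1 (1.59), EFNB2 (2.65), EPHA1 (1.55), EPHA3 (3.51), EPHA4 (1.08), EPHA7 (4.72), EPHB4 (1.85), ROBO2 (1.34), TENM3 (1.80) and TENM4 (1.16). It was below 0 for SEMA3B (-1.84), SEMA3C (-1.27), SEMA6A (-1.40), NRP1 (-1.82), NRP2 (-4.27), PLXNA4 (-4.18), PLXNB3 (-2.63), PLXNC1 (-2.24), EFNB3 (-2.27), EPHA5 (-3.19), EPHB1 (-4.67), SLIT1 (-3.03), SLIT2 (-1.49), ROBO3 (-1.75), NTN1 (-3.13), UNC5A (-1.50), RGMA (-1.31) and TENM2 (-3.12). Among all members called before adjustment (UNC5C besides those above), the calls lost on leaving out a library, with the value then, were those of EPHA1 (1.305 without dKO NPC replicate 2), EPHA4 (0.95 without dKO-D28 replicate 1), PLXNB3 (-2.22 without dKO NPC replicate 2), ROBO2 (0.90 without dKO NPC replicate 2), SEMA3B (-1.39 without WT NPC replicate 2), TENM4 (0.94 without dKO NPC replicate 2), UNC5A (-1.19 without WT NPC replicate 1), UNC5A (-1.13 without dKO NPC replicate 2), UNC5C (0.49 without WT NPC replicate 2), UNC5C (0.98 without WT-D28 replicate 1), UNC5C (0.90 without dKO NPC replicate 1) and UNC5C (0.87 without dKO-D28 replicate 1).

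For 23 members the change from NPCs to passage 4 differed between genotypes by the same edgeR test, which 2061 of all 13454 genes passed. The difference was above 0 for SEMA3C (1.44), SEMA3F (1.11), PLXNB1 (1.09), EPHA2 (1.89), EPHA7 (1.29), EPHB3 (1.79), EPHB4 (1.43), SLIT2 (1.26) and SLIT3 (2.89). It was below 0 for SEMA5B (-1.88), SEMA6A (-1.32), NRP2 (-2.59), PLXNA4 (-3.92), PLXNC1 (-1.303), EPHA5 (-5.72), EPHB1 (-1.31), ROBO1 (-2.22), ROBO2 (-2.37), NTN1 (-1.13), DCC (-1.53), UNC5A (-2.95), RGMA (-1.21) and TENM4 (-1.03). Among all members called before adjustment (EFNA4 and SLIT1 besides those above), the calls lost on leaving out a library, with the value then, were those of EFNA4 (0.27 without WT NPC replicate 2), EFNA4 (1.08 without WT NPC-P4 replicate 1), EFNA4 (1.25 without dKO NPC replicate 1), EFNA4 (1.47 without dKO NPC replicate 2), EFNA4 (1.35 without dKO NPC-P4 replicate 1), EFNA4 (1.35 without dKO NPC-P4 replicate 2), EPHA7 (0.98 without dKO NPC replicate 2), NTN1 (-0.99 without WT NPC-P4 replicate 1), NTN1 (-0.99 without dKO NPC-P4 replicate 2), PLXNB1 (0.997 without WT NPC-P4 replicate 2), PLXNC1 (-0.996 without WT NPC replicate 2), SLIT1 (-1.17 without WT NPC replicate 2), SLIT1 (-1.34 without dKO NPC replicate 1), SLIT1 (-1.301 without dKO NPC-P4 replicate 2), SLIT3 (1.79 without WT NPC replicate 2), TENM4 (-0.78 without dKO NPC replicate 1) and TENM4 (-0.99 without dKO NPC-P4 replicate 1).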

How the results depend on the processing

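No called result changed direction under any alternative. The median log2 fold change of tested members, dKO NPC-P4 vs WT NPC-P4, was 0.02 and ranged from -0.13 to 0.05 over the alternatives, and the median log2 fold change of tested members, dKO NPC vs WT NPC, was -0.03 and ranged from -0.07 to 0.13, so neither has a set sign. Leaving out one library at a time gave 36 to 41 called members for WT-D28 against WT NPCs, 10 to 19 for dKO-D28 against dKO NPCs (12 with all libraries), 6 to 16 for dKO NPCs against WT NPCs (13 with all), 36 to 40 at passage 4, 35 to 44 at D28, 26 to 29 and 13 to 16 for passage in WT and dKO, and 30 to 37 and 22 to 27 for the interactions. Requiring at least 10 counts in every sample left 54 members to test and gave 7 calls for dKO-D28 against dKO NPCs (0 higher and 7 lower) and 25 for D28, a filter that removes genes low in any group. Of 3324 values of called single members under the alternatives, 3165 kept their side of the threshold and 159 were no longer called. Samples with the same replicate number mostly did not deviate together (correlations -0.06 to 0.18, mean 0.02), so the numbers were not taken as pairs. The highest value, 0.18, was that of WT NPC-P4 with dKO NPC-P4, where 38 members were called with or without the replicate block. The fit with the replicate block gave 40, 11, 14, 38, 39, 27 and 15 calls in the 7 comparisons (WT and dKO differentiation, genotype in NPCs, at passage 4 and at D28, passage in WT and in dKO) and 34 and 25 for the interactions. The shallow NPC libraries and the spread between the dKO-D28 samples limit the calls that involve them.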
